A study of Mus musculus with 8 samples.

Results

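Keratins, claudins and the proteins of the desmosome were followed in tumours that grew from 1 mouse prostate cancer line in aged and in young hosts. Members were taken by a rule on gene symbols. It took every keratin (Krt followed by a number) and every claudin (Cldn followed by a number). It also took the desmosomal cadherins (Dsg and Dsc) and the plaque proteins Dsp, Jup and Pkp1 to Pkp4. The rule uses no measured value, but the members were chosen with earlier results of these data known. The rule found 99 of the 24028 genes in the tables. They were 5 simple keratins, 4 basal keratins, 43 other keratins, 32 claudins, 9 desmosomal cadherins and 6 plaque proteins. Of these 99, 34 held enough fragments to be tested between the host ages.

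The 8 tumours grew from TRAMP-C2, an established adenocarcinoma line from a TRAMP transgenic mouse, after 1 M cells had been placed in the dorsolateral prostate of male C57BL/6 mice with intact immunity. 4 tumours came from aged hosts of 20 to 24 months (mice 46, 47, 50 and 51, of 19 injected) and 4 from young hosts of 4 months (mice 36, 37, 40 and 43, of 20 injected), all taken 30 to 45 days after injection. Both groups received the same line, so host age is the only labelled difference, and how the sequenced tumours were chosen is not given in the sources used here. Poly(A) RNA of whole tumours was counted, which mixes transcripts of injected cells with those of any host prostate and stroma. In such bulk RNA, fewer cells of a type and less RNA per cell cannot be told apart.

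Keratins are the intermediate filaments of epithelia, and each filament pairs an acidic type I keratin with a basic type II keratin. In the prostate, luminal secretory cells carry the simple keratins Krt8 (type II) and Krt18 and Krt19 (type I), while basal cells carry Krt5 (type II) with Krt14 or Krt15 (type I). Urothelium, which lines the bladder and urethra next to the prostate, carries several of both kinds, among them Krt5, Krt7 and Krt20. Claudins are the membrane proteins that seal or open the tight junction. Desmosomes anchor keratin filaments at the cell border through cadherins (desmogleins and desmocollins) that are linked to keratin by plakoglobin (Jup), plakophilins (Pkp) and desmoplakin (Dsp).

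No member passed the test between tumours of aged and young hosts. Of the 34 members tested, edgeR's quasi-likelihood test called 0 at an adjusted p under 0.05, as it called 0% of all 14575 genes, and the smallest adjusted p of a member was 0.92. At an unadjusted p under 0.05 it marked 1 member (Pkp2), against 4.99% of all genes. At the same unadjusted threshold DESeq2 marked 2 members (Pkp2 and Pkp4), against 6.02% of all genes. Limma voom marked 8 of the 34, namely Cldn10, Dsg2, Krt14, Krt17, Krt20, Krt4, Krt5 and Krt6a, but not Pkp2. That is a larger share than its 12.1% of all genes, whereas the 1 of 34 of edgeR is a smaller share than its 4.99%. DESeq2 called 0 members, against 0.295% of all genes, and limma voom with sample weights called 0 members, against 0.0617% of all genes. The aged and young values overlapped for every tested member (0 of 34 without overlap), whereas 3.66% of all genes had none. Fold changes were positive, meaning higher in aged hosts, for 30 of the 34 members, against 8060 of all 14575 genes. Many members were high or low in the same tumours, so these signs are not independent. The median of the members was 0.63 on the log2 scale, against 0.03 over all genes. That median was 0.14 without aged 50, with 23 of 34 positive, and 0.35 without young 43. Without aged 46 or aged 51 it was 0.78 and 0.91, and without aged 47 it was 0.49.

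Most members varied widely from tumour to tumour. Levels of 1 gene across tumours are given in CPM, the fragment count scaled to the library total, and levels between genes in FPKM, which is CPM per kilobase of transcript. The ratio of the highest to the lowest tumour (CPM + 0.1) had a median of 14.5 over the tested members, against 1.86 over all tested genes. Some other epithelial genes ranged as widely, among them Epcam with 0.7 to 69.4 CPM and the transcription factor Ehf with 0.812 to 126 CPM. Others did not, among them the transcription factor Klf5 with 11.9 to 26.1 CPM and the tight junction partner F11r with 39.5 to 89.6 CPM. Whether the members differ from other epithelial genes in spread was not tested. Aged 50 was the highest tumour for 17 of the 34 members (50%, against 22.7% of all genes). Young 43 was the lowest for 22 of the 34 (64.7%, against 14.8% of all genes). Members with a wide range were found beside members below the 1.86 of all genes among the other keratins (lowest ratio 1.43) and the claudins (lowest 1.66). The lowest ratio of a plaque protein was 2.01.

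**Figure D1:**
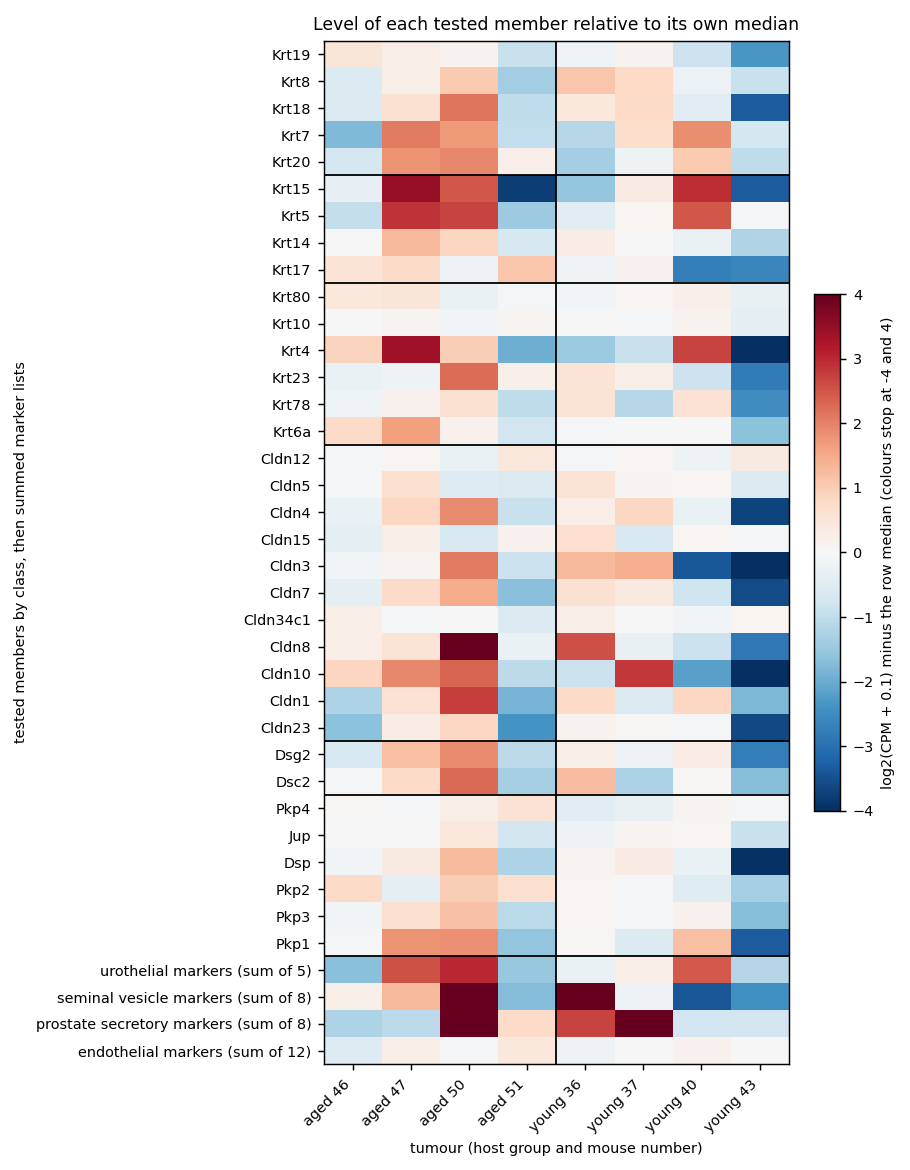
Heat map of log2(CPM + 0.1) minus the median of each row, for the 34 tested members by class (rows) in 4 aged and 4 young tumours (columns), with 4 summed marker lists underneath. Krt15 spans 0.662 to 115 CPM while Cldn12 spans 77.5 to 129 CPM, and the row of urothelial markers is high in aged 47, aged 50 and young 40, as are Krt5, Krt7 and Krt15.

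The libraries held 27.1 to 35.7 M counted fragments, at which 3 fragments equal 0.084 to 0.111 CPM, a floor that covers counting error only. Some tumours carried transcripts typical of cells of the seminal vesicle, prostate gland or urothelium, and their source was not tested. The 8 seminal vesicle markers summed to 22952.3 CPM in aged 50 and 38196.7 CPM in young 36, against 0.624 to 18.9 CPM in the other 6 tumours. The 8 prostate secretory markers reached 6260.2 CPM in aged 50, 1672.5 CPM in young 36 and 11237.0 CPM in young 37, and 109 to 430 CPM elsewhere. In young 37 most of the sum was Sbp (7523.2 CPM) and Spink1 (3579.7 CPM). Mme of the same list lay between 41.1 and 174 CPM in all 8 tumours. It made up 121 of the 150 CPM in young 40 and 145 of the 151 CPM in young 43. The 5 uroplakins summed to 6.78, 128, 179 and 7.64 CPM in aged 46, 47, 50 and 51, against 18.4, 26.2, 122 and 9.71 CPM in young 36, 37, 40 and 43. All 5 had at least 3 fragments in aged 47, aged 50, young 37 and young 40, and Upk3bl was at 0 in young 43. The part of these cells in the results was not tested, and their values stand beside each class.

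The line is labelled epithelial. Epcam, an epithelial adhesion protein, measured 22.7, 38, 69.4 and 8.67 CPM in the aged tumours, against 27.3, 52.5, 4.54 and 0.7 CPM in the young ones. E-cadherin (Cdh1) measured 25.1, 52.1, 85.3 and 13.9 CPM in the aged tumours, against 29.8, 59.1, 22.2 and 2.83 CPM in the young ones. Both were lowest in young 43, whereas vimentin, the filament protein of mesenchymal cells, lay between 1739.5 and 3032.9 CPM in all 8 tumours. Here and below, 4 values for a group run in the order aged 46, 47, 50, 51 or young 36, 37, 40, 43.

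The simple keratins Krt19, Krt8 and Krt18 were the most abundant members per transcript length. Krt19 (Entrez 16669; chr11:100140810-100145926, GRCm38), a type I keratin with a very short tail, had the highest median of all 99 members at 87.8 FPKM. Krt8 (Entrez 16691; chr15:101996711-102004342) followed at 32 FPKM and Krt18 (Entrez 16668; chr15:102028216-102032026) at 29.4 FPKM. The genes of Krt8 and Krt18 are neighbours on chromosome 15, although the other type I keratins tested lie on chromosome 11. Krt7 (Entrez 110310; chr15:101412403-101427806), a type II keratin of ducts and urothelium, had a median of 13.9 FPKM.

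Krt19 measured 169, 143, 131 and 65.1 CPM in aged hosts, against 110, 132, 67.4 and 23.8 CPM in young hosts. The groups overlapped, and the lowest tumour of each group was aged 51 and young 43. The means were 127 ± 44.3 CPM in aged and 83.3 ± 47.9 CPM in young hosts (SD, n = 4 each). The log2 fold change was 0.61 ± 0.49 (SE) with an adjusted p of 0.92 by edgeR.

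Krt8 measured 39.2, 67.4, 118 and 21.5 CPM in aged hosts, against 124, 99.9, 48 and 30.7 CPM in young hosts. Young 36 and aged 50 were high and the low tumours were again aged 51 and young 43, so the groups overlapped almost fully. It was the only simple keratin with a negative fold change, -0.34 ± 0.56 (SE, adjusted p 0.94, edgeR), and without young 36 that value was 0.04. Of the 50-base windows of its transcripts, 29.7% also occur in another gene, mostly in the pseudogene Krt8-ps, and how such reads were counted is not given in the sources used here.

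Krt18, the filament partner of Krt8, measured 26.5, 60.3, 174 and 19.4 CPM in aged hosts, against 53.2, 66.4, 29.2 and 3.81 CPM in young hosts. Aged 50 stood highest and young 43 lowest, with the other 6 tumours between 19.4 and 66.4 CPM. The fold change was 0.83 ± 0.88 (SE, adjusted p 0.92, edgeR), and it was -0.11 without aged 50. Per length, the ratio of Krt8 to Krt18 was 1.15, 0.867, 0.524 and 0.86 in aged tumours, against 1.81, 1.17, 1.28 and 6.26 in young tumours. Every young ratio lay above every aged one, by as little as 1.17 in young 37 against 1.15 in aged 46. No test was made of this pair, which is 1 of 5 ratios computed, and how often other gene pairs separate the groups was not computed. The ratio also carries the uncertainty of Krt8, which shares 29.7% of its 50-base windows with another gene.

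Because Krt8 and Krt18 are filament partners and chromosomal neighbours whose levels differed between tumours, 300 bases at each annotated start, most of them upstream, are shown as RefSeq gives them on GRCm38.p6. Capitals mark matches on either strand to 4 motifs. They were the core promoter motif TATAAA, the Sp1 motif GGGCGG, the palindrome GCCNNNGGC read by AP-2 factors and the AP-1 motif TGANTCA. Krt8 lies on the minus strand, chr15:102004293-102004592, and Krt18 on the plus strand, chr15:102027966-102028265.
Krt8: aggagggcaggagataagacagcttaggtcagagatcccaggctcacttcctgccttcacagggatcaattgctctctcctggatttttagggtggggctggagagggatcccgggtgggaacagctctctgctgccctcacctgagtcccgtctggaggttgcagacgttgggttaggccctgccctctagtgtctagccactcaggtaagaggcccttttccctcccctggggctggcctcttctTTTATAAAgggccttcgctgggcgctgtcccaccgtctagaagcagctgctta
Krt18: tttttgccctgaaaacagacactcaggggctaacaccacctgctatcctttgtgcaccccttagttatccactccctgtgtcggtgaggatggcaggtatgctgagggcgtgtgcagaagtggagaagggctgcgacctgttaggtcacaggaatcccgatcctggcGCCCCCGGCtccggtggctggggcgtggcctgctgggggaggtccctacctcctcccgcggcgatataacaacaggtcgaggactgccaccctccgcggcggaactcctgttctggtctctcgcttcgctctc

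The Krt8 window held TATAAA on both strands in 1 overlapping stretch, with first bases at -3 and -1 from the annotated start. The Krt18 window held GCCNNNGGC at -83 and none of the other 3 motifs. Of 32851 RefSeq windows of this length, 13.6% hold TATAAA, 35.7% GGGCGG, 16.6% GCCNNNGGC and 7.81% TGANTCA. A match describes letters and not a bound site.

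Krt7 measured 5.64, 83, 64.5 and 9.79 CPM in aged hosts, against 8.87, 32.3, 70.9 and 11.9 CPM in young hosts. It was high in aged 47, aged 50 and young 40, the tumours with the most uroplakin transcript, and not in aged 46, where Krt19 was highest. Its fold change of 0.38 ± 0.91 (SE, adjusted p 0.96, edgeR) was -0.22 without aged 47.

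Krt20, a type I keratin of umbrella cells of the urothelium and of gut epithelium, was much lower, at 0.712, 4.56, 4.97 and 1.42 CPM in aged hosts, against 0.416, 1.07, 2.63 and 0.56 CPM in young hosts. The same 3 tumours were high. Its fold change was 1.31 ± 0.73 (SE, adjusted p 0.92, edgeR).

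Summed over the 5 simple keratins, the level was 241, 359, 492 and 117 CPM in aged hosts, against 297, 332, 218 and 70.7 CPM in young hosts. The groups overlapped, and the difference of mean log2 sums was 0.43 with a pooled SD of 0.96. It was -0.06 without young 43 and 0.13 without aged 50.

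**Figure D2:**
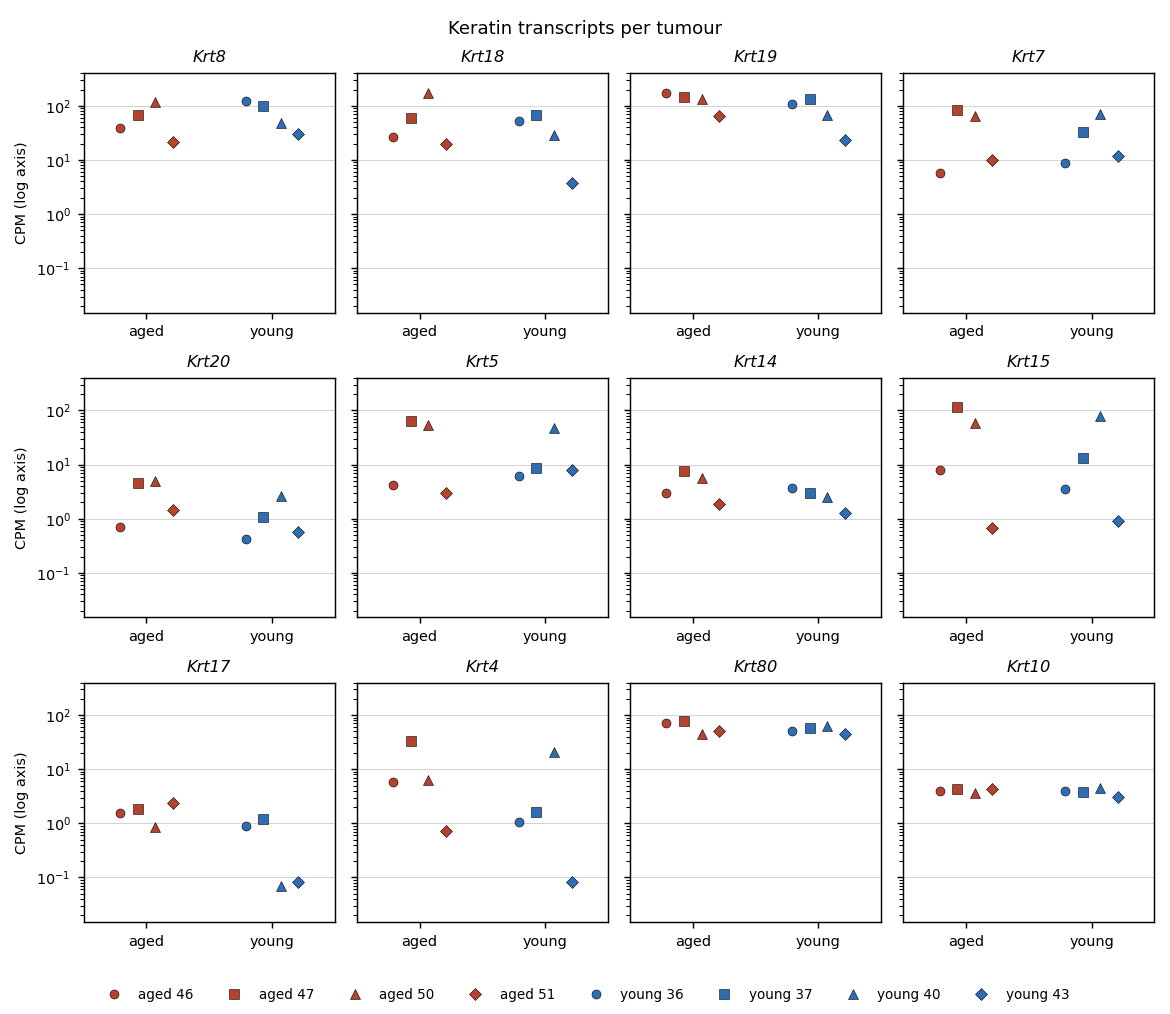
CPM on a log axis of 12 keratins in the 4 aged tumours (left, red) and the 4 young tumours (right, blue), 1 marker shape per mouse. Krt80 and Krt10 lie in a narrow band, while Krt5, Krt7 and Krt15 are each high in aged 47, aged 50 and young 40.

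Basal keratins differed widely between tumours, most of all Krt15 and Krt5. Krt15 (Entrez 16665; chr11:100131759-100135949), a type I keratin of basal and progenitor-like cells, measured 8.05, 115, 58.2 and 0.662 CPM in aged hosts, against 3.47, 13, 80.1 and 0.924 CPM in young hosts. Aged 47, aged 50 and young 40 were high, and aged 51 and young 43 were below 1 CPM. The ratio of its highest to its lowest tumour was 151. Its fold change of 0.89 ± 1.54 (SE, adjusted p 0.95, edgeR) was smaller than its error, and it was -0.12 without aged 47.

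Krt5 (Entrez 110308; chr15:101707069-101712905), the type II keratin of basal cells, measured 4.24, 62.9, 54.8 and 3.01 CPM in aged hosts, against 6.21, 8.72, 47 and 7.95 CPM in young hosts. The same 3 tumours were high and the other 5 lay between 3.01 and 8.72 CPM. The fold change was 0.82 ± 1.05 (SE, adjusted p 0.93, edgeR), with 0.24 without aged 47 and 1.97 without young 40. Its sequence is shared in 12.2% of 50-base windows, most with Krt6a.

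Krt14, the usual type I partner of Krt5, measured 3.03, 7.67, 5.64 and 1.89 CPM in aged hosts, against 3.74, 3.03, 2.53 and 1.26 CPM in young hosts. It was somewhat higher in aged 47 and aged 50 and not in young 40. Per length, Krt5 over Krt14 was 1.1, 6.43, 7.63 and 1.25 in aged tumours, against 1.3, 2.26, 14.6 and 4.96 in young tumours. The largest of these ratios were in aged 47, aged 50 and young 40, where Krt5 over Krt15 was 0.431, 0.739 and 0.461.

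Krt17, a type I keratin of basal cells that is induced in wounds, measured 1.55, 1.84, 0.87 and 2.35 CPM in aged hosts, against 0.901, 1.18, 0.0693 and 0.084 CPM in young hosts. Young 40 and young 43 were at or under the floor of 3 fragments, and aged 50 at 0.87 CPM lay below young 36 and young 37. It had the largest fold change of the 34 members, 1.57 ± 0.85 (SE, adjusted p 0.92, edgeR). Krt17 was thus not high in young 40, where Krt5 and Krt15 were.

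The 4 basal keratins summed to 16.9, 187, 119 and 7.91 CPM in aged hosts, against 14.3, 25.9, 130 and 10.2 CPM in young hosts. The difference of mean log2 sums was 0.65 with a pooled SD of 1.93. It was -0.07 without aged 47, 0.14 without aged 50 and 1.45 without aged 51. Upk3a, a uroplakin that plates the surface of urothelium, was high in the same tumours, at 0.0929, 28.7, 27.9 and 0.165 CPM in aged hosts, against 0.0693, 2.77, 31.5 and 1.57 CPM in young hosts. Trp63, the transcription factor of basal and urothelial cells, measured 1.21, 12.7, 18.9 and 0.86 CPM in aged hosts, against 3.36, 3.4, 8.73 and 1.51 CPM in young hosts. The part of urothelium in the basal keratin values was not tested.

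Because Krt5 and Krt7 were high in the same tumours and both lie in the type II cluster of chromosome 15, their start windows are shown in the same way. Krt5 lies on the minus strand at chr15:101712856-101713155 and Krt7 on the plus strand at chr15:101412153-101412452.
Krt5: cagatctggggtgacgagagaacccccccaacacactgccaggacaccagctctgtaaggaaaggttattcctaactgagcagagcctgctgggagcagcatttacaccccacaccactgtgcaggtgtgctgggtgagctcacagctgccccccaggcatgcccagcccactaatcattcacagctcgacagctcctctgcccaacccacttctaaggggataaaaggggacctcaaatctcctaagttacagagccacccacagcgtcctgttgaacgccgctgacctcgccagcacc
Krt7: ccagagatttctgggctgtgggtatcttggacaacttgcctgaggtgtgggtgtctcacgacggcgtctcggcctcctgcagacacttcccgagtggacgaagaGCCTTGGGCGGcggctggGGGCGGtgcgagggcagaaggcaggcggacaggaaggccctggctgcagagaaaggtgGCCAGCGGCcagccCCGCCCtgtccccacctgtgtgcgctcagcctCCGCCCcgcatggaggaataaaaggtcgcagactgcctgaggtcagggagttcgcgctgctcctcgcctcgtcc

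The Krt5 window held none of the 4 motifs. The Krt7 window held GGGCGG at -141, -128, -56 and -24 and GCCNNNGGC at -146 and -70, so the windows of these keratins share no motif of the 4.

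The other keratins were mostly absent. Of 43, 6 were tested and 15 had no fragment in any tumour. All 24 hair and hair-follicle keratins went untested, 11 of them at 0 throughout, and the highest was Krt75 with 0.656 CPM in aged 47. Krt1, the suprabasal partner of Krt10 in epidermis, did not exceed 0.252 CPM.

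Krt80, a type II keratin of many epithelia, was the most abundant of the other keratins, at 72.2, 76.6, 45 and 51.6 CPM in aged hosts, against 50.3, 57.4, 62.5 and 44 CPM in young hosts. No tumour stood apart, and the highest was 1.74 times the lowest. The means were 61.4 ± 15.4 CPM in aged and 53.5 ± 8.09 CPM in young hosts (SD, n = 4 each). The fold change was 0.21 ± 0.20 (SE, adjusted p 0.92, edgeR).

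Krt10, the type I keratin of differentiated epidermis, lay at 4.03, 4.33, 3.7 and 4.33 CPM in aged hosts, against 3.92, 3.77, 4.44 and 3.08 CPM in young hosts. Its ratio of 1.43 was the smallest of any tested member. The fitted fold change was 0.12 ± 0.23 (SE, adjusted p 0.95, edgeR).

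Krt4, a type II keratin of stratified mucosa, had the widest range of all members, a ratio of 182, with 5.85, 33.4, 6.26 and 0.728 CPM in aged hosts, against 1.04, 1.63, 21 and 0.084 CPM in young hosts. Aged 47 and young 40 were high, and aged 50 was not, which differs from Krt5 and Krt15. Its fold change of 0.97 ± 1.44 (SE, adjusted p 0.94, edgeR) was -0.41 without aged 47. The sum of the 12 cornified envelope genes measured was highest in the same tumours. It was 43.9, 447, 192 and 17.4 CPM in aged hosts, against 76.7, 53.9, 438 and 26.4 CPM in young hosts. Most of it was Sprr2a1, a small proline-rich protein, at 370 CPM in aged 47, 365 CPM in young 40 and 133 CPM in aged 50. Sprr1a was also highest in aged 47 and young 40, whereas Tgm1 was highest in young 37 and Sbsn stayed within 1.29 to 4.2 CPM. Of that list Lce3a was at 0 in all 8 tumours and Flg2 in all but aged 46. The part of squamous or urothelial host cells was not tested.

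Krt23, a type I keratin, measured 0.96, 1.02, 5.89 and 1.36 CPM in aged hosts, against 1.73, 1.4, 0.624 and 0.084 CPM in young hosts. Only aged 50 stood out. Its fold change was 1.23 ± 0.88 (SE, adjusted p 0.92, edgeR).

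Krt78, a type II keratin of stratified epithelia, stayed between 0.056 and 1.23 CPM, with a fold change of 0.19 ± 0.78 (SE, adjusted p 0.98, edgeR). Krt6a, a stress keratin given here outside the rule for named members, measured 1.33, 2.52, 0.842 and 0.397 CPM in aged hosts, against 0.693, 0.739, 0.728 and 0.168 CPM in young hosts. Of its 50-base windows, 57.2% are shared, mostly with Krt6b, so its level is uncertain. Its partner Krt16 and its copy Krt6b did not reach the tested level.

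Taken by filament type and per length, type I keratins summed to 153, 225, 266 and 68.2 FPKM in aged hosts, against 126, 157, 122 and 23.2 FPKM in young hosts. Type II keratins summed to 42.6, 149, 142 and 28.8 FPKM in aged hosts, against 86.7, 90.5, 114 and 35.5 FPKM in young hosts. Both sums overlapped between the groups. Type II over type I was 0.278, 0.659, 0.534 and 0.422 in aged tumours, against 0.686, 0.576, 0.93 and 1.53 in young tumours. Only young 43 had more type II than type I transcript, in a sum that includes Krt8 with its shared windows. Krt19 made up 35.9% (aged 50) to 80.2% (aged 46) of type I FPKM, and Krt8 made up 23.4% (young 40) to 79.3% (young 36) of type II FPKM. Krt15 contributed 29.6% and 38.1% of type I in aged 47 and young 40 and at most 12.7% elsewhere.

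**Figure D3:**
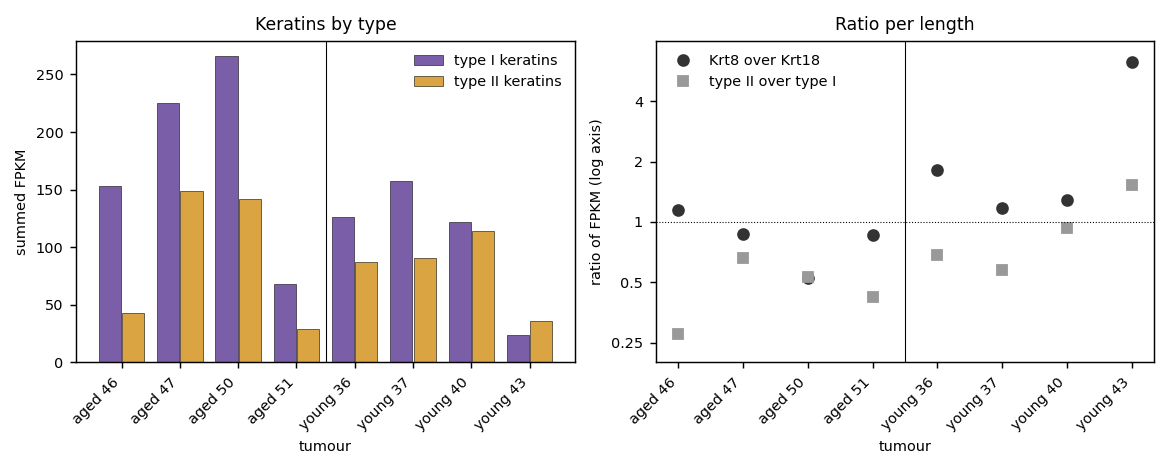
Left, bars of summed FPKM of type I and type II keratins in each tumour. Right, on a log axis, the ratio of Krt8 to Krt18 and of all type II to all type I keratins, which lies between 0.278 and 0.659 in aged tumours and between 0.576 and 1.53 in young tumours.

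Among claudins, 11 of 32 were tested and 8 had no fragment in any tumour. Per length, Cldn12 and Cldn5 had the highest medians, at 23.1 and 15.9 FPKM, followed by the epithelial Cldn4 at 11.4 FPKM. In aged 50, Cldn4 reached 41.5 FPKM, above Cldn12 at 19 FPKM. Cldn12, Cldn5 and Cldn15 were among the most even claudins. Cldn12 (Entrez 64945; chr5:5505015-5514976), a claudin without the usual PDZ-binding end, measured 89.3, 100, 77.5 and 129 CPM in aged hosts, against 88.3, 98.6, 81.5 and 121 CPM in young hosts. The groups coincided, at 99.1 ± 22 CPM in aged and 97.4 ± 17.3 CPM in young hosts (SD, n = 4 each). On the log2 scale the fold change was 0.04 ± 0.20 (SE, adjusted p 0.98, edgeR).

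Cldn5 (Entrez 12741; chr16:18776847-18778262), the claudin of endothelial tight junctions, measured 21.1, 35.1, 15.8 and 14.9 CPM in aged hosts, against 32.9, 24.1, 24 and 15.3 CPM in young hosts. The values overlapped fully and no tumour stood apart. Its fold change was -0.15 ± 0.31 (SE, adjusted p 0.95, edgeR), and it was 0.07 without young 36. The 12 endothelial markers, all detected in every tumour, summed to 295, 508, 404 and 568 CPM in aged hosts, against 369, 414, 471 and 430 CPM in young hosts.

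Cldn15, a pore-forming claudin, lay between 6.42 and 11.6 CPM in aged and between 6.39 and 15.8 CPM in young hosts. edgeR gave a fold change of -0.19 ± 0.32 (SE, adjusted p 0.94, edgeR).

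The epithelial claudins Cldn3, Cldn4 and Cldn7 ranged far more. Cldn4 (Entrez 12740; chr5:134945123-134946934), a sealing claudin of many glands, measured 16.7, 36.1, 75.2 and 11 CPM in aged hosts, against 24.5, 36, 16.8 and 1.48 CPM in young hosts. Aged 50 was highest and young 43 lowest, as for Krt18. Between host ages the fold change was 0.78 ± 0.83 (SE, adjusted p 0.92, edgeR), with 0.11 without aged 50 and 1.24 without young 37.

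Cldn3 (Entrez 12739; chr5:134986214-134987476), its neighbour, measured 7.34, 8.49, 33.9 and 4.3 CPM in aged hosts, against 19.4, 21.1, 0.658 and 0.196 CPM in young hosts. Young 36 and young 37 were high and young 40 and young 43 near 0, and aged 50 was high among the aged tumours. Its fold change of 0.34 ± 1.25 (SE, adjusted p 0.98, edgeR) was -0.63 without aged 50. In young 40, Cldn3 and Epcam (4.54 CPM) were low while Krt5 and Krt15 were high.

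Cldn7 (Entrez 53624; chr11:69964779-69967886), a basolateral claudin, measured 4.58, 10.4, 17.3 and 1.82 CPM in aged hosts, against 9.29, 8.06, 3.43 and 0.42 CPM in young hosts. The extremes were those of Cldn4. The fitted fold change was 0.64 ± 0.87 (SE, adjusted p 0.93, edgeR).

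Because Cldn4 was the most abundant of these, its start window is shown, from the minus strand at chr5:134946885-134947184 on GRCm38.p6, with the same motifs in capitals.
Cldn4: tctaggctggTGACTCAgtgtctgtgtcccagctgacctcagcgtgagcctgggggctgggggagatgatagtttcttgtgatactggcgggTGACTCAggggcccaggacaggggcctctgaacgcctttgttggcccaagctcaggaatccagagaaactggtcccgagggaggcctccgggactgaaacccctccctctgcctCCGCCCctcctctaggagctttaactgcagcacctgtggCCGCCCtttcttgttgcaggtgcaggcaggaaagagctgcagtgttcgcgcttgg

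It held TGANTCA at -240 and -158 and GGGCGG, on the opposite strand, at -44 and -5. Both motifs occur in the shares of all windows given above.

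Cldn8, a claudin of kidney and gland ducts, had 3.22, 3.97, 49.8 and 2.22 CPM in aged hosts, against 16.4, 2.14, 1.42 and 0.28 CPM in young hosts. Aged 50 and young 36 were high, and these are the tumours with seminal vesicle transcripts. Its fold change of 1.46 ± 1.36 (SE, adjusted p 0.92, edgeR) was -0.71 without aged 50.

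Cldn10, a claudin that forms ion channels, had 4.18, 8.85, 11.7 and 1.03 CPM in aged hosts, against 1.18, 16.6, 0.416 and 0.028 CPM in young hosts. Young 37 was highest, and young 43 held a single fragment. Sbp and Spink1 made up most of the prostate secretory sum of young 37, while Pbsn (3.66 CPM) and Tgm4 (0.259 CPM) were low there. On the log2 scale the fold change of Cldn10 was 0.47 ± 1.36 (SE, adjusted p 0.97, edgeR). It was 3.53 without young 37, 0.04 without aged 50 and 2.52 with limma voom.

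Cldn11, the claudin of Sertoli cells and myelin, reached at most 0.617 CPM and was not tested, and neither were Cldn6, Cldn14, Cldn16 and Cldn18. Cldn1, the barrier claudin of epidermis and liver, measured 0.836, 3.15, 14.7 and 0.496 CPM in aged hosts, against 3.61, 1.37, 3.81 and 0.532 CPM in young hosts, with aged 50 high. Cldn23 measured 0.403, 1.8, 2.67 and 0.199 CPM in aged hosts, against 1.63, 1.52, 1.39 and 0.028 CPM in young hosts, with young 43 lowest. Neither separated the groups, and both are given outside the rule for named members. Cldn34c1, also outside it, held 2.58 to 4.61 CPM in every tumour. Cldn34c1 shares 13.8% of its 50-base windows, most with Cldn34c2. Summed over all 32, claudins measured 161, 225, 315 and 179 CPM in aged hosts, against 218, 221, 148 and 153 CPM in young hosts. The mean log2 sum was 0.22 higher in aged hosts with a pooled SD of 0.38. Cldn12 made up 77.5 of the 315 CPM in aged 50 and 121 of the 153 CPM in young 43.

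**Figure D4:**
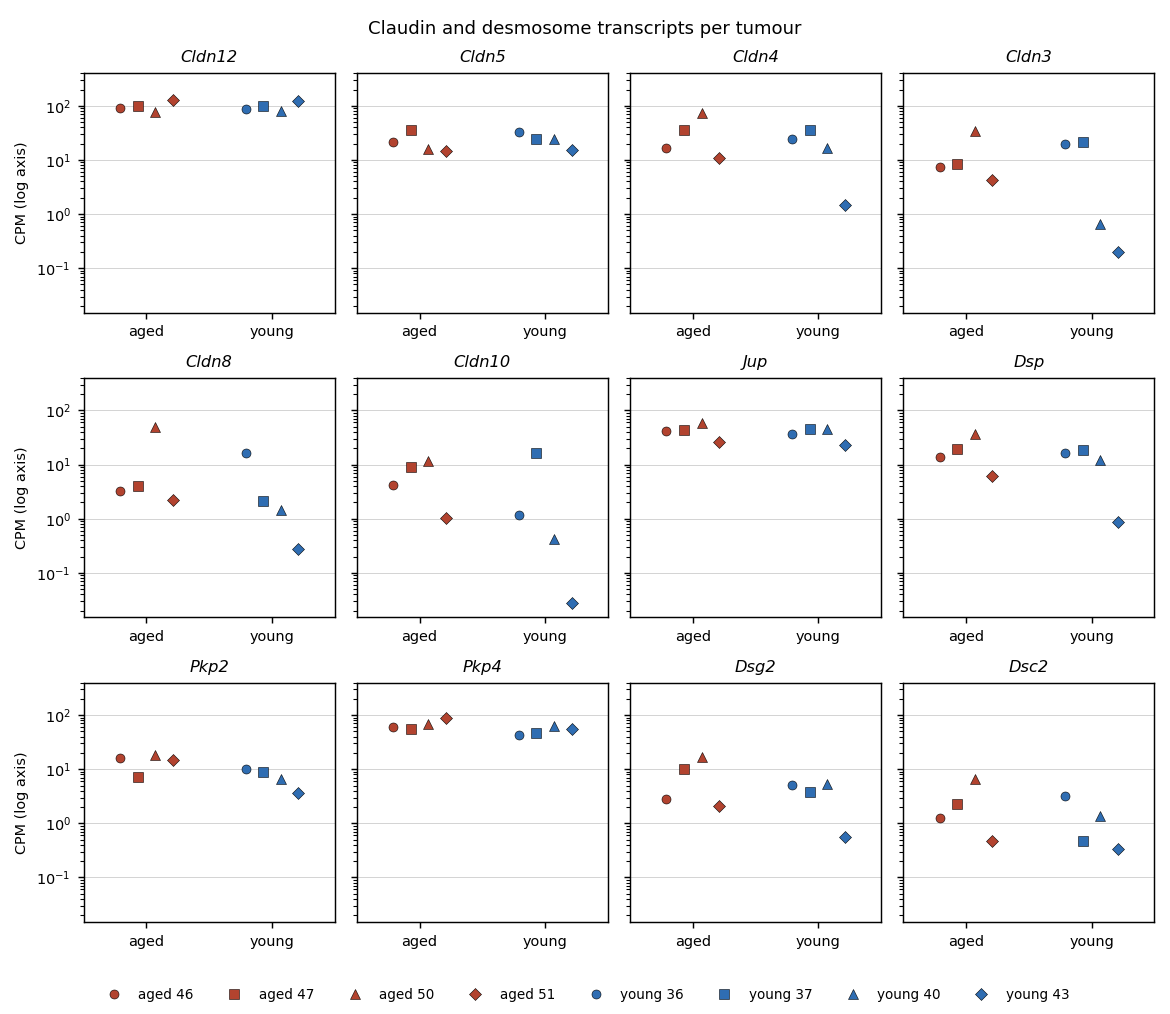
CPM on a log axis of 6 claudins and 6 desmosome genes in the 4 aged tumours (left, red) and the 4 young tumours (right, blue), 1 marker shape per mouse. Cldn12, Pkp4, Cldn5 and Jup have the narrowest ranges shown. Cldn8 is high in aged 50 and young 36, and young 43 is lowest for Cldn4, Cldn3, Dsp and Dsg2.

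The desmosomal cadherins were scarce. Of 9, Dsg2 and Dsc2, the pair of simple epithelia and heart, were tested, and the skin forms Dsg1a, Dsg1b, Dsg1c, Dsg3, Dsg4, Dsc1 and Dsc3 were not. Dsg2 (Entrez 13511) measured 2.85, 10.1, 16.6 and 2.08 CPM in aged hosts, against 5.1, 3.73, 5.41 and 0.56 CPM in young hosts. Aged 47 and aged 50 were above every young tumour and aged 46 and aged 51 were below all of them but young 43. Aged minus young came to 1.07 ± 0.77 (SE, adjusted p 0.92, edgeR).

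Dsc2 (Entrez 13506) measured 1.27, 2.3, 6.71 and 0.463 CPM in aged hosts, against 3.22, 0.481, 1.35 and 0.336 CPM in young hosts. Aged 50 and young 36 were highest, as for Cldn8. The fold change of 0.94 ± 0.90 (SE, adjusted p 0.92, edgeR) was -0.02 without aged 50. Dsg3, the desmoglein of basal squamous cells, did not exceed 0.328 CPM and Dsc3 did not exceed 0.164 CPM, also in the tumours rich in Krt5. The 9 cadherins summed to 4.24, 12.9, 24.5 and 2.61 CPM in aged hosts, against 8.49, 4.32, 6.9 and 1.01 CPM in young hosts.

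All 6 plaque proteins were tested, and all 6 fold changes were positive. Pkp2 (Entrez 67451; chr16:16213345-16272712), the plakophilin of simple epithelia and heart, measured 15.9, 7.21, 18.5 and 14.8 CPM in aged hosts, against 9.98, 8.83, 6.65 and 3.67 CPM in young hosts. Aged 46, aged 50 and aged 51 lay above every young tumour, and aged 47 lay among the young ones. The means were 14.1 ± 4.84 CPM in aged and 7.28 ± 2.78 CPM in young hosts (SD, n = 4 each). Its fold change of 0.96 ± 0.38 (SE) had an unadjusted p of 0.032 and an adjusted p of 0.92 by edgeR, and it did not pass. With limma voom, which weights the tumours unequally, the value was 0.08. Unlike most members, Pkp2 was high in aged 46 and aged 51, which had the lowest uroplakin sums.

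Pkp4 (Entrez 227937; chr2:59160850-59355205), a plakophilin relative found at several kinds of junction, measured 59.7, 55.2, 67.2 and 86.7 CPM in aged hosts, against 43.2, 47, 62.3 and 55.7 CPM in young hosts. Aged 51 was highest and young 36 lowest, and the middle values overlapped. This gave a fold change of 0.39 ± 0.18 (SE, adjusted p 0.92, edgeR).

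Jup (Entrez 16480; chr11:100368856-100397839), plakoglobin, which also sits in adherens junctions, measured 42.2, 43.6, 59.3 and 26 CPM in aged hosts, against 37.1, 45.9, 45.7 and 23.3 CPM in young hosts. The groups overlapped, with aged 51 and young 43 low. Between host ages the fold change was 0.17 ± 0.27 (SE, adjusted p 0.94, edgeR).

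Dsp (Entrez 109620; chr13:38151294-38198577), the plakin that binds keratin and found in every desmosome, measured 13.7, 19.2, 36.1 and 6.25 CPM in aged hosts, against 16.3, 18.7, 12.4 and 0.868 CPM in young hosts. Aged 50 and young 43 were the extremes, as for Cldn4 and Krt18. Aged minus young came to 0.62 ± 0.77 (SE, adjusted p 0.92, edgeR).

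Pkp3, the plakophilin of most epithelia, measured 5.67, 9.67, 13.9 and 2.81 CPM in aged hosts, against 6.45, 5.77, 6.86 and 1.82 CPM in young hosts, with a fold change of 0.60 ± 0.52 (SE, adjusted p 0.92, edgeR). Pkp1, the plakophilin of stratified epithelia, measured 0.867, 3.38, 3.48 and 0.232 CPM in aged hosts, against 0.936, 0.591, 2.18 and 0 CPM in young hosts, so it was highest where Krt5 was. This gave a fold change of 1.08 ± 1.11 (SE, adjusted p 0.92, edgeR).

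The 6 plaque proteins summed to 138, 138, 198 and 137 CPM in aged hosts, against 114, 127, 136 and 85.3 CPM in young hosts. Every aged sum lay above every young sum, the nearest being 137 CPM in aged 51 and 136 CPM in young 40. The mean log2 sum was 0.41 higher in aged hosts with a pooled SD of 0.28, and it was the only class whose difference exceeded that SD. Most of the sum is Pkp4 and Jup, and no test was made of it. None of the 6 plaque proteins separated the groups alone. The sum is 1 of 6 class sums, scaled to library totals alone, and how often other gene sums separate the groups was not computed.

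**Figure D5:**
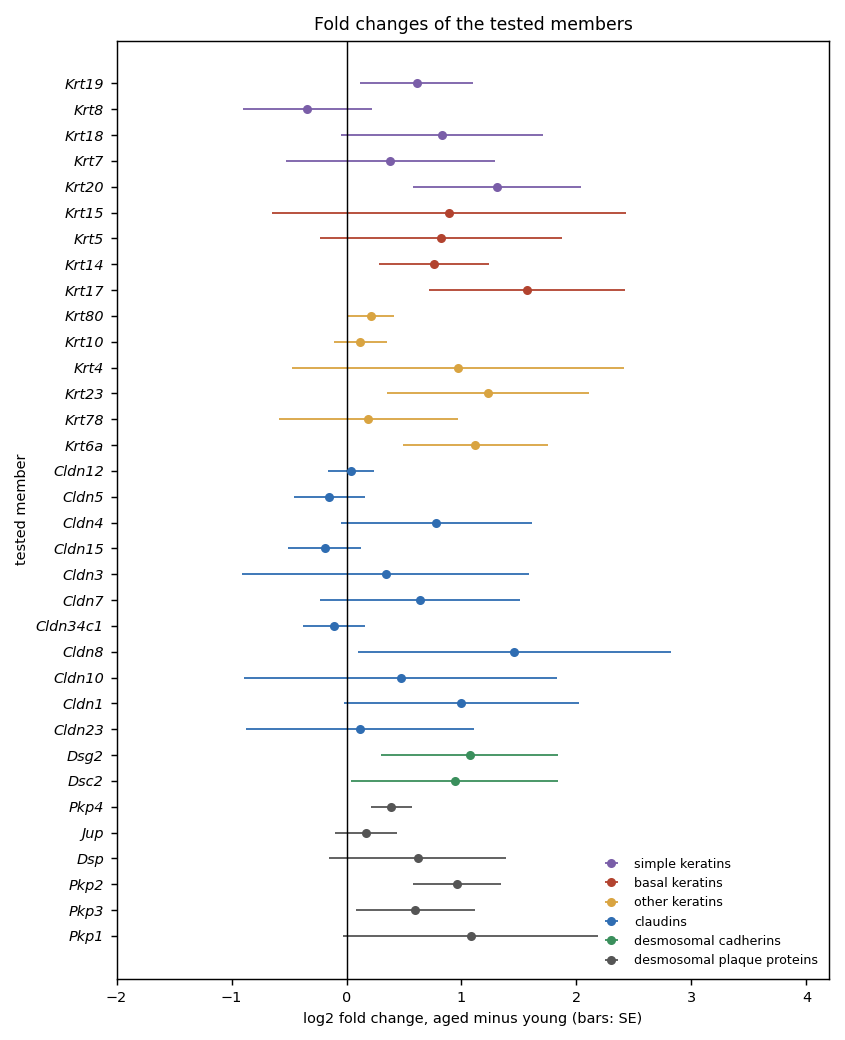
Log2 fold change, aged minus young, of each of the 34 tested members (points, coloured by class) with its standard error (bars). Of the points, 30 of 34 lie right of 0. Pkp2 and Pkp4 have the shortest bars relative to their values, 0.96 ± 0.38 and 0.39 ± 0.18.

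None of the genes that work with these proteins was called. Of 15 tight junction partners, 15 had positive fold changes, with a median of 0.37, while 8060 of all 14575 genes were positive. The smallest p was that of Pard6b, a polarity protein, with a fold change of 0.55 ± 0.22 (SE, unadjusted p 0.035, adjusted p 0.92, edgeR), and occludin (Ocln) measured 3.16, 5.57, 17 and 2.05 CPM in aged hosts, against 4.75, 6.54, 1.94 and 0.588 CPM in young hosts. Of 14 epithelial transcription factors tested, 14 had positive fold changes, with a median of 0.63. Grhl2, which maintains epithelial junction genes, measured 4.89, 8.75, 25.1 and 1.42 CPM in aged hosts, against 6.86, 6.65, 2.84 and 0.196 CPM in young hosts, so it too was highest in aged 50 and lowest in young 43. Ehf, an ETS factor of epithelia, measured 24.7, 47.7, 126 and 12.1 CPM in aged hosts, against 42.1, 44.6, 9.77 and 0.812 CPM in young hosts.

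Of 9 linkers of keratin and desmosome, 7 had positive and 2 negative fold changes, with a median of 0.27. Of 10 adherens junction genes, 5 were positive and 5 negative, with a median of 0.06. Cdh3, P-cadherin, had the smallest p of that list, at 72, 83.8, 108 and 78 CPM in aged hosts, against 101, 110, 112 and 137 CPM in young hosts. edgeR gave a fold change of -0.42 ± 0.14 (SE, unadjusted p 0.013, adjusted p 0.92, edgeR), and it did not pass. Of 8 other intermediate filament genes tested, 3 were positive and 5 negative, with a median of -0.04, and of 5 tested cornified envelope genes, 3 were positive and 2 negative, with a median of 0.20. Each of these medians stands beside 0.03 for all genes, and each count of positive fold changes beside 8060 of 14575.

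The signs of some members' fold changes depended on which tumours were included. When any 1 tumour was left out, the median stayed positive, from 0.14 without aged 50 to 0.91 without aged 51. Without aged 50 and young 36, the tumours with seminal vesicle transcript, 27 of 34 members were positive and the median was 0.34. Without aged 47, aged 50 and young 40, the tumours highest in uroplakins and a choice made after seeing the data, 14 of 34 were positive and the median was -0.13. In that set of 5 tumours the fold change of Krt5 was -1.0, that of Krt18 -0.79 and that of Cldn4 -0.53. Aged 50 was the highest tumour for 17 of the 34 members and aged 47 for 8. Leaving both out therefore lowers the aged values by the choice itself, and no conclusion is drawn from that set. No member was called in either set.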

How the data were processed

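RNA of 8 tumours was sequenced, 4 from aged and 4 from young hosts, and the labels name no batch. Per the submitters' processing notes, bcl2fastq, TopHat2 2.0.12 and Picard 2.7.1 were used with the build GRCm38 (mm10). Which program counted fragments, on which annotation and with which strand setting, is not given in the sources used here, and reads of near-identical or overlapping genes may have been shared. 50-base windows of GENCODE vM21 transcripts were searched for such sharing. Per the file headers, the authors deposited a fragment count, an FPM value, an FPKM value and an mRNA size for each gene. The deposited FPM equals CPM, the count scaled to the total of its tumour, and the deposited FPKM is that CPM per kilobase of the mRNA size. CPM was used for levels of 1 gene across tumours and FPKM for levels between genes.

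The test was edgeR 4.0.16 under R 4.3.3, with filterByExpr (minimum count 10, minimum total 15), TMM factors and the robust quasi-likelihood fit, host age as the only term, and Benjamini-Hochberg adjustment over all 14575 genes at a threshold of 0.05. Fold changes are log2, aged minus young. A low-count filter can favour genes that are high in 1 group, so the counts of tested members are given as descriptions. DESeq2 1.42.0, limma 3.58.1 (voom with sample weights), other scalings and filters, a covariate of gland transcripts and the omission of tumours were alternatives. The procedure was tested on simulated data. The members, the 16 gene lists beside them and the alternatives were chosen with earlier results of these data known. Named members are the up to 5 most abundant of each class, the up to 2 with the widest range, those with an unadjusted p under 0.05 or no overlap, and a fixed set; of the gene lists, up to 2 with the smallest p and those set beside a member. Others were chosen after their values were seen. Nothing in the labels says how the tumours relate beyond 1 mouse each, so p-values measure the spread between tumours. No library was a copy of another: the closest pair differed by a chi-square of 42.6 per degree of freedom. Promoter windows and coordinates are from RefSeq on GRCm38.p6, and windows were taken for 22 of the 35 members that reached 1 CPM. Genes on chromosome 18, among them Dsg2 and Dsc2, were left out of the windows.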

Additional observations from a re-analysis of the deposited data

Results flagged for a closer look

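Each group of 4 tumours was searched for a single tumour far from the other 3, a gap to its nearest neighbour above Dixon's critical share of the range, over 74 groups. Of these, 11 were flagged. Dixon's share is set for about 5% of independent groups with normally distributed values. The members searched here included those named for a wide range, and class sums contain members. The 5% is therefore no yardstick for the 11. No cause was tested.

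Aged 50 stood apart for Cldn8 at 49.8 CPM (the other aged tumours 2.22 to 3.97 CPM), for Cldn3 at 33.9 CPM (4.3 to 8.49 CPM), for Krt23 at 5.89 CPM (0.96 to 1.36 CPM) and for the sum of plaque proteins at 198 CPM (137 to 138 CPM). Aged 47 stood apart for Krt4 at 33.4 CPM, with the other aged tumours at 0.728 to 6.26 CPM.

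Among young tumours, young 40 stood apart for Krt15 at 80.1 CPM (the others 0.924 to 13 CPM), for Krt5 at 47 CPM (6.21 to 8.72 CPM), for Krt4 at 21 CPM (0.084 to 1.63 CPM) and for the basal keratin sum at 130 CPM (10.2 to 25.9 CPM). Young 36 stood apart for Cldn8 at 16.4 CPM (0.28 to 2.14 CPM), and young 37 for Cldn10 at 16.6 CPM (0.028 to 1.18 CPM).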

How the results depend on the processing

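No member was called under any of the 17 alternatives. Over all genes, DESeq2 called 43, limma voom 9 and the covariate of gland transcripts 2, and the other alternatives called 0 as edgeR did. Of 508 recomputed fold changes of 30 named members, 470 kept their sign and 38 reversed. Leaving out 1 tumour at a time, fold changes ranged from -0.12 to 2.91 for Krt15, -0.41 to 3.61 for Krt4, -0.22 to 1.15 for Krt7, -0.63 to 0.92 for Cldn3, -0.71 to 3.51 for Cldn8, -0.02 to 1.90 for Dsc2, -0.11 to 1.23 for Krt18, -0.20 to 0.62 for Krt78, -0.14 to 0.16 for Cldn12, -0.45 to 0.07 for Cldn5, -0.37 to 0.11 for Cldn15, -0.83 to 0.04 for Krt8 and -0.01 to 0.34 for Jup. The other named members kept their sign when 1 tumour was left out, some with a wide range: 0.04 to 3.53 for Cldn10, 0.24 to 1.97 for Krt5, 0.11 to 1.24 for Cldn4, 0.07 to 1.09 for Cldn7, 0.13 to 0.91 for Dsp, 0.43 to 1.37 for Dsg2, 0.23 to 1.71 for Krt23, 0.94 to 2.05 for Krt20, 0.66 to 1.91 for Pkp1, 0.22 to 0.87 for Pkp3 and 0.74 to 1.18 for Pkp2. With limma voom, Cldn5 was 0.13, Pkp2 0.08, Cldn10 2.52, Krt4 3.09 and Krt7 1.43. Without aged 50 and young 36, reversals were Cldn10 -0.28, Cldn15 0.25, Cldn3 -0.10, Cldn5 0.20 and Krt7 -0.22. Without aged 47, aged 50 and young 40, a choice made after seeing the data, they were Cldn10 -1.11, Cldn3 -1.17, Cldn4 -0.53, Cldn7 -0.84, Cldn8 -1.18, Dsc2 -0.59, Dsg2 -0.30, Dsp -0.20, Krt14 -0.07, Krt15 -0.34, Krt18 -0.79, Krt5 -1.0, Krt7 -1.13 and Pkp3 -0.09. In both sets fewer tumours were tested, and the cause was not tested further. The second set left out aged 47 and aged 50, where many members were highest, so lower fold changes were built into it.

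Of 84 recomputed class sums, 4 moved by more than the spread between tumours. Taking the median over members in place of the sum gave 1.26 for other keratins, 0.65 for claudins and 0.91 for plaque proteins, and claudins were -0.20 without aged 47, aged 50 and young 40. Library totals alone are what CPM already uses, so that alternative left the sums as they were. No paired analysis was possible because the groups share no mouse number. Members under 0.111 CPM, 3 fragments in the shallowest library, cannot be told from 0.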

Other observations

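A few members outside the tests had most of their fragments in 1 tumour, and they are named here after their values were seen. Cldn2, a cation-channel claudin of leaky epithelia, reached 4.83 CPM in aged 50 (172 fragments) and at most 0.14 CPM in the other tumours. Dsc1, a desmocollin of differentiated epidermis, had 30 fragments in aged 50 and at most 1 elsewhere. Krt13, the type I partner of Krt4 in mucosa, had 30 fragments in aged 46, where Krt4 measured 5.85 CPM, and 0.173 CPM in young 40, where Krt4 measured 21 CPM. Krt75, a hair-follicle companion-layer keratin, had 20 fragments in aged 47.

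Ivl, involucrin of the cornified envelope, measured 0.0619, 7.15, 7.77 and 0.0662 CPM in aged tumours, against 0.0347, 2.18, 13.7 and 0.644 CPM in young tumours, and was highest in the tumours with the most Krt5 and Krt15. The 6 mesothelial markers, nearly all of it Msln, summed to 570, 527, 214 and 524 CPM in aged tumours, against 354, 308, 303 and 216 CPM in young tumours. Upk3b of the same list measured 0.217, 9.21, 12.3 and 1.06 CPM in aged tumours, against 1.18, 0.776, 8.35 and 2.57 CPM in young tumours, high where Krt5 was high.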
